A study of Sus scrofa with 4 samples.

Results

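The interferon-stimulated genes described here are 40 genes that cells switch on when interferon reaches them, chosen by name with earlier breed comparisons of the same libraries in view. A row under the member's symbol was found for 39 of the 40 among 29692 gene symbols; IFIT5 had none. Muscle was taken by biopsy from Hampshire and Mali pigs, and RNA from 2 libraries per breed was sequenced, 4 libraries in all, to compare breeds that differ in muscularity. No treatment, age, sex or muscle is named in the labels, which also do not say whether the 2 libraries of a breed came from different animals, so any p-value covers only the spread between these samples. Because the members were picked with the breed difference known, their breed difference is given below as a description and not as a test.

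Interferons are secreted when a cell detects viral or misplaced nucleic acid. They bind cell-surface receptors whose kinases phosphorylate STAT proteins, and a complex that includes STAT2 and IRF9 then activates a shared set of promoters. The proteins made in response include sensors of foreign RNA, transcription factors that amplify the signal, enzymes and membrane proteins that block viral replication, and ISG15, a small ubiquitin-like protein that is attached to other proteins. Skeletal muscle fibres respond to interferon, and so do the immune, endothelial and connective tissue cells among them, so a bulk biopsy does not say which cells made a transcript. In such samples, more cells of a type and more RNA per cell cannot be told apart.

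Levels are FPKM, fragments scaled to gene length and to library size, so that genes of unlike length can be set beside each other. Read totals are unknown. The FPKM summed to between 516463 and 988614 per library, and genes of the mitochondrial genome took 42.5% of the sum in Hampshire replicate 1 against 17.1% to 21.3% in the others. All 9 skeletal muscle markers found were present in every library, with the skeletal actin ACTA1 between 20637 and 46329 FPKM. The libraries also form pairs that cross the breeds. Among rows under 0.5 FPKM in both libraries, 10.6% had the same ratio of values, to within 0.02 on the log2 scale, between Hampshire 1 and Mali 1. The share was 5.44% between Hampshire 2 and Mali 2 and at most 1.80% for any other combination. Differences are therefore also given within these pairs. In 10075 genes that reached 1 FPKM in 2 or more libraries, limma with Benjamini-Hochberg adjustment called 0 genes between the breeds (0%), and 714 genes (7.09%) had an unadjusted p under 0.05. With the library pair added as a term, limma called 261 genes (2.59%), of which 178 were higher in Hampshire (1.77%), and 22 of the members were among those 178. The members were chosen on this contrast, so nothing is read from that count.

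One library, Hampshire replicate 1, held most of the interferon-stimulated RNA. The 39 members summed to 1123 FPKM there, to 277 in Hampshire 2, to 157 in Mali 1 and to 92.8 in Mali 2. Every member was highest in Hampshire 1, a position that this library held for 17.5% of all tested genes. For 36 of the 39, Hampshire 2 came next and both Mali libraries were lower. That order was seen in 5.39% of tested genes, and both Hampshire libraries lay above both Mali libraries for 13%. Since the breed contrast was used to choose the members, these shares are printed for scale only. The exceptions were IFI44L, IFI35 and DTX3L, for which Mali 1 lay above Hampshire 2. The count of members whose breeds did not overlap depended on scaling. It was 28 with FPKM rescaled to one total per library, 28 also without mitochondrial genes in that total, and 31 with quantile normalization. The shares above are for values as deposited, and none is given for these scalings, which also move the other genes. The median log2 difference of all tested genes, Hampshire minus Mali, was -0.12 as deposited. Under these scalings it was -0.40, -0.18 and -0.04, in that order.

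For 32 of the 39 members, the FPKM ratio between the Hampshire libraries was larger than that of Hampshire 2 to the Mali mean. In FPKM, Hampshire 1 was above Hampshire 2 by a median factor of 3.70 over the 39 members, and above the Mali mean by a median factor of 8.06. Hampshire 2 was above the Mali mean by a median factor of 2.12. At least 5-fold over the Mali mean was reached by 28 members in Hampshire 1 and by 1, MX2, in Hampshire 2. The Mali libraries were not alike either, with 32 of the 39 members higher in Mali 1 than in Mali 2, as were 46.6% of all tested genes, and a median ratio of 1.79.

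**Figure D1:**
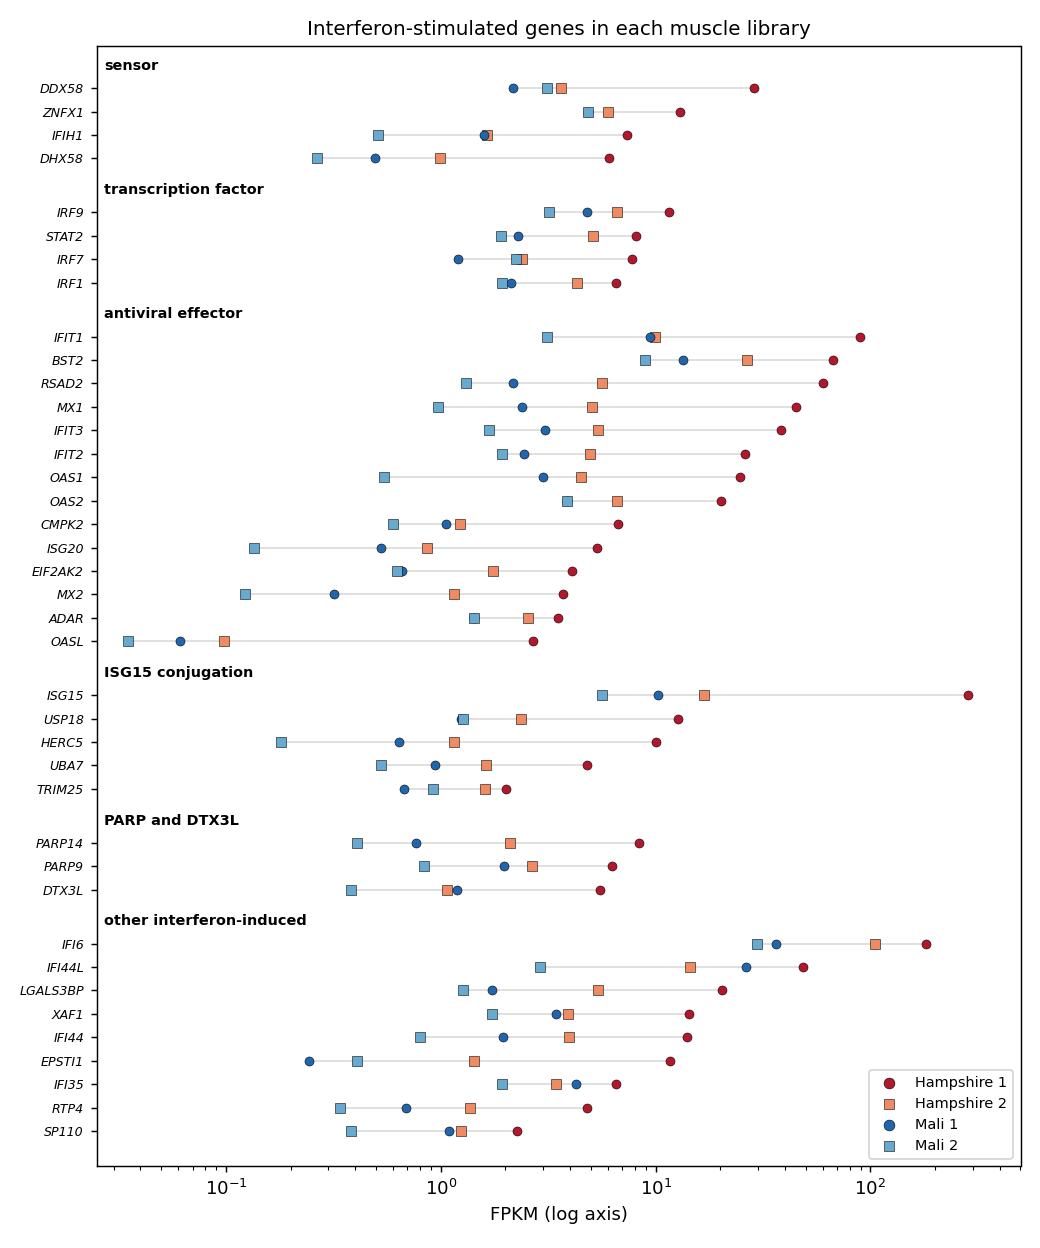
FPKM on a log axis of the 39 interferon-stimulated genes in each of the 4 libraries, grouped by role and ordered by the level in Hampshire 1; each point is 1 library and the grey line spans the 4 values. Hampshire 1 (dark red circle) is the rightmost point for all 39 genes, and Hampshire 2 (orange square) lies left of Mali 1 for IFI44L, IFI35 and DTX3L.

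The median log2 difference, Hampshire minus Mali on the log2(FPKM + 1) scale, was 1.38 over all 39 members, against -0.12 over all tested genes. Within the first pair it was 1.9995 and within the second 0.84, and all 39 differences were positive within each pair. With Hampshire 1 left out the median was 0.63, and with Hampshire 2 left out it was 2.14. The expression filter was passed by 36 members, and DHX58, OASL and ISG20 did not pass it. For 8 members both Hampshire libraries and neither Mali library reached 1 FPKM. A gene of this kind enters the test through the breed in which it is high, so the 36 are not a fair sample of the list.

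In what follows, values are given for replicate 1 and then replicate 2 of a breed, Hampshire before Mali. All 4 sensors were measured. DDX58, which encodes the RNA helicase RIG-I that recognises the ends of viral RNA, was at 28.7 and 3.61 FPKM in Hampshire muscle and 2.18 and 3.11 FPKM in Mali muscle. The gap between Hampshire 2 and Mali 2 was thus small beside that between the Hampshire libraries, with a log2 difference of 3.22 between Hampshire 1 and Mali 1 and of 0.17 between Hampshire 2 and Mali 2. IFIH1, which encodes MDA5, a helicase that binds long double-stranded RNA, was at 7.33 and 1.64 against 1.59 and 0.513 FPKM. Hampshire 2 and Mali 1 nearly coincided for this gene. DHX58, a helicase related to these sensors that modulates them, was at 6.07 and 0.997 against 0.496 and 0.266 FPKM. ZNFX1, a helicase-domain protein of the same antiviral system, was at 13.0 and 5.98 against 4.86 and 4.86 FPKM, the smallest step of the sensors.

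The 4 transcription factors were the role group with the narrowest range. STAT2, the STAT protein specific to type I and type III interferon signalling, was at 8.08 and 5.13 FPKM in Hampshire muscle and 2.30 and 1.91 FPKM in Mali muscle. IRF9, its DNA-binding partner, was at 11.5 and 6.65 against 4.80 and 3.21 FPKM. IRF1, a factor induced by interferon gamma as well, was at 6.57 and 4.32 against 2.13 and 1.94 FPKM. These 3 genes had Hampshire libraries within a factor of 1.73 of each other, and both lay above both Mali libraries. IRF7, the factor that amplifies interferon alpha production, was at 7.79 and 2.40 against 1.20 and 2.23 FPKM, so that Hampshire 2 was barely above Mali 2. Over the 4 factors, Hampshire 1 exceeded the Mali mean by between 2.87-fold and 4.54-fold.

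Among the antiviral effectors, Hampshire 1 exceeded the Mali mean by between 2.46-fold, for ADAR, and 55.7-fold, for OASL, whose Mali values were under 0.1 FPKM; the next highest factor was 34.6, for RSAD2. RSAD2, which encodes viperin, an enzyme that makes a chain-terminating nucleotide, was at 60.2 and 5.65 FPKM in Hampshire muscle and 2.17 and 1.31 FPKM in Mali muscle. Its neighbour CMPK2, a mitochondrial nucleotide kinase, was at 6.66 and 1.24 against 1.05 and 0.599 FPKM. Both genes were several-fold higher in Hampshire 1 than in any other library, while CMPK2 in Hampshire 2 was close to Mali 1. MX1, a dynamin-like GTPase that traps viral components, was at 45.1 and 5.05 against 2.39 and 0.974 FPKM. MX2, its paralog, was at 3.70 and 1.15 against 0.319 and 0.122 FPKM. The MX genes did not overlap between breeds, with Hampshire 2 at 2.999 times the Mali mean for MX1 and 5.20 times for MX2.

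The IFIT genes encode proteins that bind viral RNA with unusual ends. IFIT1 was at 89.4 and 9.99 FPKM in Hampshire muscle and 9.37 and 3.12 FPKM in Mali muscle. IFIT2 was at 26.0 and 4.96 against 2.45 and 1.93 FPKM, and IFIT3 at 38.3 and 5.41 against 3.05 and 1.68. For all 3, Hampshire 1 exceeded Hampshire 2 by more than 5-fold, and for IFIT1 Hampshire 2 was level with Mali 1. A further row, LOC100151816, carries IFIT5 as a synonym in the RefSeq table and lies next to IFIT1. It was at 15.8 and 5.34 against 2.95 and 1.33 FPKM, the same order of libraries as the IFIT genes, and it is not counted as a member.

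The OAS enzymes make a messenger that activates RNase L when double-stranded RNA is present. OAS1 was at 24.7 and 4.48 FPKM in Hampshire muscle and 2.99 and 0.542 FPKM in Mali muscle, so the libraries of each breed differed by the same factor of 5.52. OAS2 was at 20.1 and 6.58 against 3.88 and 3.88 FPKM. OASL, a family member without that enzyme activity in human, was at 2.68 in Hampshire 1 and at 0.0979, 0.0610 and 0.0351 in the other 3 libraries. It thus reached 1 FPKM in a single library, and its ratio of 27.4 between the Hampshire libraries rests on very low values.

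The remaining effectors act on virus release, translation and RNA. BST2, or tetherin, which holds budding virus at the cell surface, was at 67.4 and 26.7 FPKM in Hampshire muscle and 13.4 and 8.95 FPKM in Mali muscle. EIF2AK2, the kinase PKR that stops translation on double-stranded RNA, was at 4.09 and 1.76 against 0.657 and 0.628 FPKM. ADAR, an enzyme that edits double-stranded RNA and restrains its sensing, was at 3.52 and 2.54 against 1.44 and 1.42 FPKM. In these 3 genes the Hampshire libraries were within a factor of 2.52 of each other and the breeds did not overlap. ISG20, an exonuclease that degrades single-stranded RNA, was at 5.31 and 0.864 against 0.525 and 0.135 FPKM, a wider gap between the Hampshire libraries than in those 3.

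ISG15 itself had the largest log2 difference of the members, 3.05. It was at 284 and 16.8 FPKM in Hampshire muscle and 10.2 and 5.61 FPKM in Mali muscle. Hampshire 1 was therefore 16.9-fold above the other Hampshire library, which was 2.12-fold above the Mali mean. ISG15 made up 25.3% of the members' summed FPKM in Hampshire 1 and between 6.04% and 6.52% in the other libraries. The enzymes that attach and remove ISG15 had the same order of libraries, with smaller ratios between the Hampshire libraries than ISG15 itself. UBA7, the activating enzyme, was at 4.81 and 1.63 against 0.944 and 0.527 FPKM. HERC5, a ligase for ISG15 in human, was at 10.05 and 1.16 against 0.639 and 0.181 FPKM. USP18, which removes ISG15 and also dampens the interferon receptor, was at 12.7 and 2.36 against 1.24 and 1.27 FPKM. TRIM25, a ubiquitin ligase that acts with RIG-I, was at 2.01 and 1.61 against 0.677 and 0.925 FPKM, with the smallest gap between the Hampshire libraries of all 39 genes.

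PARP9 and DTX3L encode partners in a complex with ubiquitin and ADP-ribose activity, and PARP14 is a related mono-ADP-ribosyltransferase. PARP14 was at 8.36 and 2.10 FPKM in Hampshire muscle and 0.765 and 0.409 FPKM in Mali muscle. PARP9 was at 6.27 and 2.66 against 1.97 and 0.834 FPKM, and DTX3L at 5.48 and 1.07 against 1.18 and 0.381. The breeds overlapped for DTX3L and not for its partners. PARP9 and DTX3L lie on opposite strands and overlap by 395 bases, which makes the values of this gene pair uncertain.

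Among the remaining interferon-induced genes, IFI6, a small membrane protein that limits flavivirus replication in human cells, was at 181 and 106 FPKM in Hampshire muscle and 36.4 and 29.6 FPKM in Mali muscle. It took the largest share of the members' FPKM in the other 3 libraries, between 23.2% and 38.0%, and 16.1% in Hampshire 1. LGALS3BP, a secreted glycoprotein, was at 20.4 and 5.41 against 1.72 and 1.27 FPKM. EPSTI1 was at 11.7 and 1.42 against 0.244 and 0.408 FPKM. The breeds were separated for all 3, and Hampshire 1 was 35.8-fold above the Mali mean for EPSTI1 against 5.498-fold for IFI6. IFI44 was at 13.9 and 3.94 against 1.95 and 0.797 FPKM, whereas its neighbour IFI44L was at 48.4 and 14.5 against 26.3 and 2.91. The IFI44L values alternated between the breeds, and the Mali libraries differed by a factor of 9.04. XAF1, an inhibitor of an anti-apoptotic protein, was at 14.4 and 3.89 against 3.45 and 1.73 FPKM. The receptor-transporting protein gene RTP4 was at 4.79 and 1.37 against 0.686 and 0.341 FPKM. SP110, a nuclear body protein, was at 2.27 and 1.24 against 1.09 and 0.383 FPKM, and IFI35 at 6.56 and 3.43 against 4.26 and 1.93. SP110 and IFI35 had the smallest differences of this role group, 0.67 and 0.56 on the log2 scale.

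**Figure D2:**
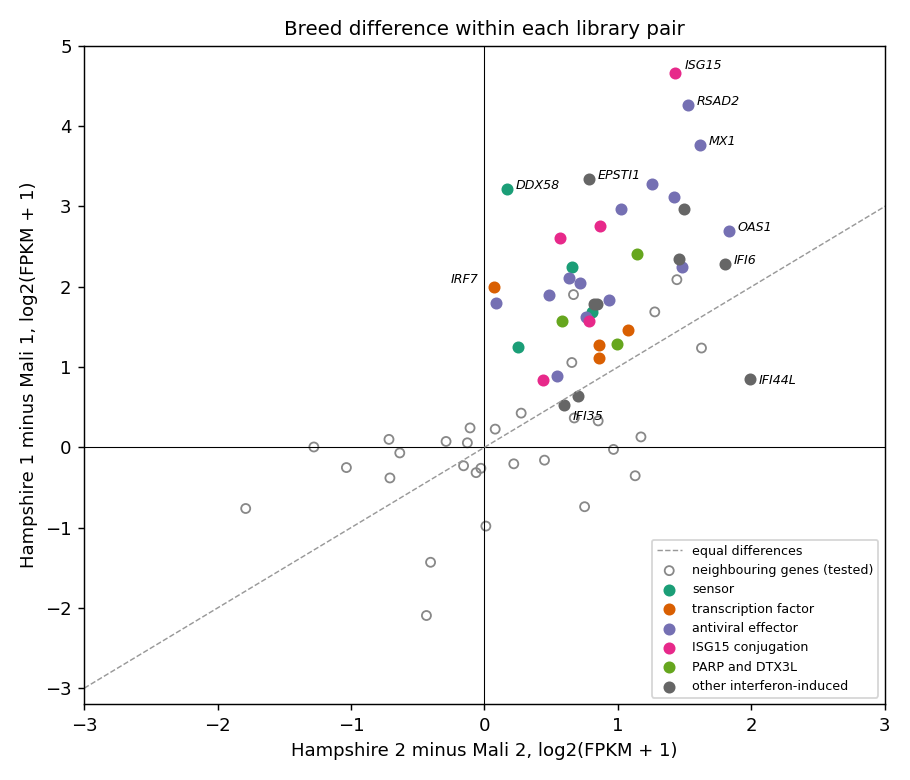
Hampshire minus Mali on the log2(FPKM + 1) scale within the second library pair (horizontal) and the first (vertical), 1 point per gene; filled points are the 39 interferon-stimulated genes by role, open circles the 30 tested neighbouring genes, and the dashed line marks equal differences. All filled points are positive on both axes and most lie above the line, with ISG15 at 1.43 and 4.67 and IFI44L below the line at 1.99 and 0.86.

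By role, the median log2 differences within the first and second pair were 1.96 and 0.45 for the 4 sensors, 1.37 and 0.86 for the 4 transcription factors and 2.18 and 0.98 for the 14 effectors. They were 2.61 and 0.78 for the 5 genes of ISG15 conjugation, 1.57 and 0.996 for PARP9, PARP14 and DTX3L, and 1.79 and 0.84 for the other 9. Thus the sensors had the lowest median in the second pair and the transcription factors the lowest in the first. The ranges of the groups overlapped, and no test between roles was made. With Hampshire 1 left out, the breed medians were 0.38 for sensors, 0.72 for transcription factors and 0.78 for effectors.

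In the authors' deposited table, which gives their own comparison of the breeds, 65 of 30212 named rows (0.215%) are marked significant. Among the marked rows are 7 of the 39 members. That share is over all named rows, expressed or not, whereas 36 of the 39 members passed the expression filter. The members were chosen with the breed difference known, so nothing is read from the count of 7. The 7 members marked are HERC5, MX1, PARP14 and RSAD2 with q = 0.0179 each, IFI6 with q = 0.0299, LGALS3BP with q = 0.0369 and EIF2AK2 with q = 0.0483, in the authors' deposited table. ISG15, which had the largest log2 difference, has q = 0.945 in the authors' deposited table.

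The rest of the pathway was followed in lists that leave the members out. No gene of these lists passed limma over all tested genes, in either direction. With the library pair as a term, 11 of the 69 tested genes of these lists passed, of which 10 were higher in Hampshire and 1 was lower, where 2.59% of all tested genes passed; the lists were chosen with results of these data known. Those higher were ZBP1 among sensing genes, SOCS2 and CISH among inhibitors, CXCL10, GBP1 and GBP2 among interferon gamma-induced genes, and HERC6, PARP12, IFITM1 and SP140 among the further interferon-induced genes. The one lower was TMEM140, at 10.07 and 9.69 against 27.9 and 48.6 FPKM. Of 7 interferon ligand genes found, none exceeded 0.128 FPKM in any library. IFNB1 was at 0.106 FPKM in Hampshire 1 and listed at 0 in the others, and IFNG, the ligand of the type II receptor, was at 0.0769 in Hampshire 1 and 0.0631 in Mali 1. The ligands IFNA1, IFN-ALPHA-1, IFN-DELTA-1, IFNK and IFNE were listed above 0 in Hampshire 2 alone. Transcripts of these 7 ligands were thus at or near 0 in the biopsies, at a depth that cannot be stated. The listed ligands IFNL1, IFNL3, IFNAL and IFNW1 had no row under those symbols, so their levels are unknown.

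Receptors and their kinases did not share the members' order. Of 7 tested genes, none lay higher in both Hampshire libraries and 3 lay lower, where 13% of all tested genes lay higher and 23.6% lower. JAK1, the kinase shared by the interferon receptors, was at 23.3 and 23.5 FPKM in Hampshire muscle and 36.9 and 29.3 FPKM in Mali muscle. IFNAR1, a chain of the type I receptor, was at 2.77 and 7.83 against 4.29 and 3.46 FPKM. Of the type II receptor chains, IFNGR1 was at 7.79 and 9.58 against 10.6 and 11.9 FPKM and IFNGR2 was at 10.7 and 9.81 against 11.9 and 20.3. None of JAK1, IFNAR1, IFNGR1 and IFNGR2 was highest in Hampshire 1. The receptor gene IFNAR2 did not pass the expression filter. It lay higher in both Hampshire libraries, at 0.877 and 1.69 against 0.549 and 0.368 FPKM, and was highest in Hampshire 2.

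Of the other STAT and IRF genes, STAT3, STAT5A and STAT5B serve other cytokines. STAT5B was at 27.5 and 27.6 against 47.6 and 38.5 FPKM, below both Mali libraries in both Hampshire libraries. STAT3 was at 9.62 and 12.1 against 11.125 and 15.1 FPKM, and STAT5A at 7.33 and 9.77 against 7.28 and 10.6. IRF2, a factor that competes with IRF1 for its sites, was at 8.40 and 7.97 against 10.05 and 6.73 FPKM, so that the breeds overlapped for these 3 genes. Over the 7 tested genes of this list the median log2 difference was -0.05, which became -0.36 with FPKM rescaled to one total per library and 0.071 under size-factor scaling.

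Of 19 further sensing and adaptor genes, 10 were tested, and of these 2 lay higher in both Hampshire libraries and 2 lower, against 13% and 23.6% of all tested genes. MAVS, the mitochondrial adaptor of RIG-I and MDA5, was at 12.8 and 10.5 against 17.2 and 18.9 FPKM, and TBK1, the kinase that activates IRF3, at 5.33 and 3.08 against 8.94 and 3.79. MYD88 and IRAK1, of Toll-like receptor signalling, were at 1.92 and 3.35 against 2.30 and 1.29, and at 8.70 and 7.56 against 10.5 and 14.9 FPKM. None of these 4, the most abundant of the list, was highest in Hampshire 1, but 7 of the 19 were and 5 had the order of the members. Those 5 were ZBP1 and TRIM56, which were tested, and TLR3, TLR7 and MB21D1, which were not. Among all tested genes, 17.5% were highest in Hampshire 1 and 5.39% had that order. ZBP1, a sensor of nucleic acid in the Z form, was at 4.39 and 1.62 against 0.454 and 0.193 FPKM. TLR3, a receptor for double-stranded RNA, was at 1.80 and 0.492 against 0.290 and 0.191.

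Of 14 tested feedback inhibitors, 5 lay higher in both Hampshire libraries and 3 lower, against 13% and 23.6% of all tested genes. CISH, which inhibits growth hormone and cytokine receptor signalling, was at 28.8 and 55.4 FPKM in Hampshire muscle and 6.86 and 6.03 FPKM in Mali muscle, a different order from the interferon-stimulated genes. The members' order was seen for the tested genes SOCS2, TRIM21 and NLRC5, against 5.39% of all tested genes, and for SOCS1, which was not tested. SOCS2, an inhibitor of growth hormone signalling, was at 12.6 and 6.495 against 2.40 and 1.01 FPKM. PTPN11, USP15 and PIAS2 were at 19.0 and 15.9, 21.6 and 11.6, and 6.92 and 4.46 FPKM in Hampshire, against 27.1 and 23.0, 17.6 and 15.1, and 9.48 and 5.26 in Mali.

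Genes downstream of interferon that were not members did share the pattern in part. Of 7 tested genes induced chiefly by interferon gamma, 5 lay higher in both Hampshire libraries and 4 had the order Hampshire 1, Hampshire 2, Mali, against 13% and 5.39% of all tested genes. Their median log2 difference of 0.98 was 0.54 with Hampshire 1 left out and 1.90 with Hampshire 2 left out. CXCL10, a chemokine for T cells, was at 144 FPKM in Hampshire 1 and at 3.77 in Hampshire 2, against 3.70 and 1.29 in Mali 1 and 2. Hampshire 1 stood alone for this gene, with the other Hampshire library level with Mali 1. GBP1 and GBP2, guanylate-binding proteins, were at 25.3 and 7.06 against 3.93 and 1.61 FPKM, and at 17.8 and 2.52 against 0.696 and 0.807. UBD, a ubiquitin-like modifier, was at 18.9 and 4.58 against 4.25 and 4.40 FPKM.

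Of 24 further interferon-induced genes tested, 9 lay higher in both Hampshire libraries, 8 with the same order as the members, and 3 lay lower. Over all tested genes, 13% lay higher, 5.39% had that order and 23.6% lay lower. The interferon-induced membrane proteins IFITM1 and IFITM3 were at 81.1 and 22.8 against 9.76 and 8.76 FPKM, and at 178 and 25.8 against 63.0 and 10.96. GMPR, a nucleotide-metabolism enzyme, was at 86.2 and 61.7 against 68.3 and 116 FPKM, and NT5C3A at 81.1 and 32.5 against 74.8 and 33.4. IFITM1 was separated by breed, and the other 3 were not. The median log2 difference of the 24 genes was 0.69, and 0.20 with Hampshire 1 left out.

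**Figure D3:**
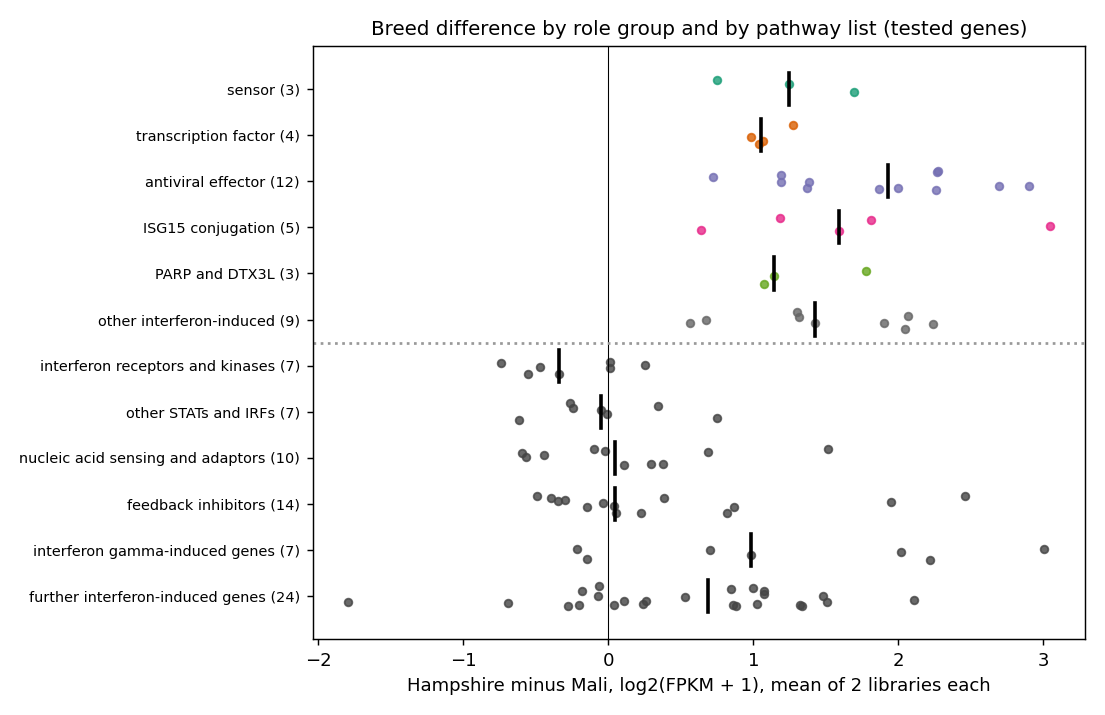
Hampshire minus Mali on the log2(FPKM + 1) scale for the tested genes of the 6 role groups (above the dotted line) and of 6 pathway lists without members (below), with the number of genes in parentheses; each point is 1 gene and the black bar is the median. Role group medians lie between 1.05 and 1.93, receptors and kinases at -0.34, and the lists of interferon gamma-induced and further interferon-induced genes at 0.98 and 0.69.

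Members sit in several tandem clusters, and their values can be set beside those of neighbouring genes, a few of which are of interferon-induced families. In Sscrofa11.1 coordinates, ISG15 is on chromosome 6 (63363201 to 63364211), and IFI44 and IFI44L follow each other on the same chromosome (134634679 to 134649857 and 134660230 to 134679212). RSAD2 and CMPK2 are on chromosome 3 (128880853 to 128897809 and 128903395 to 128917873), and MX2 and MX1 on chromosome 13 (204798633 to 204821612 and 204843049 to 204868927). IFIT2, IFIT3 and IFIT1 are on chromosome 14 (101193421 to 101204292, 101214730 to 101225169 and 101237403 to 101249486), as are OAS2 and OAS1 (38827667 to 38847697 and 38851083 to 38867427).

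The genes next to members, before and after in order of start, numbered 65, of which 30 passed the expression filter. Their median log2 difference was 0.01, and 9 of the 30 lay higher in both Hampshire libraries and 6 lower, against 13% and 23.6% of all tested genes. The order Hampshire 1, Hampshire 2, Mali was seen for 4 of the 30, against 5.39% of all tested genes. Those 4 were HERC6 and LOC100151816, which belong to interferon-induced families, HES4 beside ISG15 and FBXO39, which overlaps XAF1. The IFIT genes lie within the annotated span of LIPA, the lysosomal acid lipase on the opposite strand, which was at 5.11 and 6.64 FPKM in Hampshire muscle and 3.74 and 3.79 FPKM in Mali muscle. ACO1, the cytosolic aconitase that overlaps DDX58 on the opposite strand, was at 4.59 and 5.14 against 3.16 and 4.08 FPKM. Neither was highest in Hampshire 1, unlike the members they overlap. Other overlapping genes were highest there. SLC22A5, which covers IRF1 on the opposite strand, was at 4.33 and 1.83 against 2.84 and 2.38 FPKM. SP140, which overlaps SP110, was at 10.8 and 6.24 against 3.76 and 1.82. FBXO39 and TRAIP, which overlap XAF1 and UBA7, were also highest in Hampshire 1. The part of overlap in the members' values was not tested. In all, 15 members overlap another annotated gene, and no source used here says whether reads were counted by strand. Of the 24 that overlap none, 22 lay higher in both Hampshire libraries, where 13% of all tested genes did. The median log2 difference of the 24 was 1.40. The members were chosen on the breed contrast, so nothing is read from these values.

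None of the 9 marker lists of other cell types had its highest summed level in Hampshire 1, where the members had theirs. The skeletal muscle list did, with sums of 92932 and 88213 FPKM in Hampshire muscle and 47051 and 82408 in Mali muscle, and CKM and MYH1, a creatine kinase and a fast myosin, had the members' order. Of 9 macrophage markers, 8 were highest in Hampshire 2 and 1, LYZ, in Hampshire 1. Their summed FPKM was 48.5 and 87.6 in Hampshire 1 and 2 and 35.1 and 23.4 in Mali 1 and 2. The 11 leukocyte markers summed to 10.6 and 11.6 against 7.36 and 4.02 FPKM, with the pan-leukocyte gene PTPRC at 3.13 and 4.21 against 1.74 and 0.924. Hampshire 1 exceeded Hampshire 2 in neither sum, while the members summed to 1123 and 277 FPKM there. The macrophage and leukocyte sums were nonetheless higher in both Hampshire libraries than in either Mali library, as the members' sum was. Their part in the breed difference was not tested. The neutrophil and plasmacytoid dendritic cell sums, given below, overlapped between the breeds.

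Other tissue markers varied between libraries in other orders. All 5 fibroblast markers were highest in Hampshire 2, with sums of 412 and 1199 FPKM in Hampshire 1 and 2 and 92.8 and 304 in Mali 1 and 2, and 4 of 5 endothelial markers were as well. Red blood cell markers summed to 2545 and 3716 against 88.0 and 5480 FPKM, nearly all of it the globin HBB, while ALAS2 and SLC4A1 were highest in Hampshire 1, with ALAS2 at 19.8 and 7.44 against 0.842 and 11.6. Neutrophil markers summed to 9.89 and 27.5 against 23.4 and 13.2 FPKM, lowest in Hampshire 1. Of 5 plasmacytoid dendritic cell markers, which mark the main blood source of interferon alpha, 3 were found. They summed to 4.64 and 9.81 against 8.62 and 7.44 FPKM, and the lineage-defining CLEC4C and LILRA4 were not among them. Skin keratin sums were at most 1.08 FPKM outside Mali 2, where they were 19.9, and adipocyte sums were 72.7 and 328 against 111 and 81.1.

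**Figure D4:**
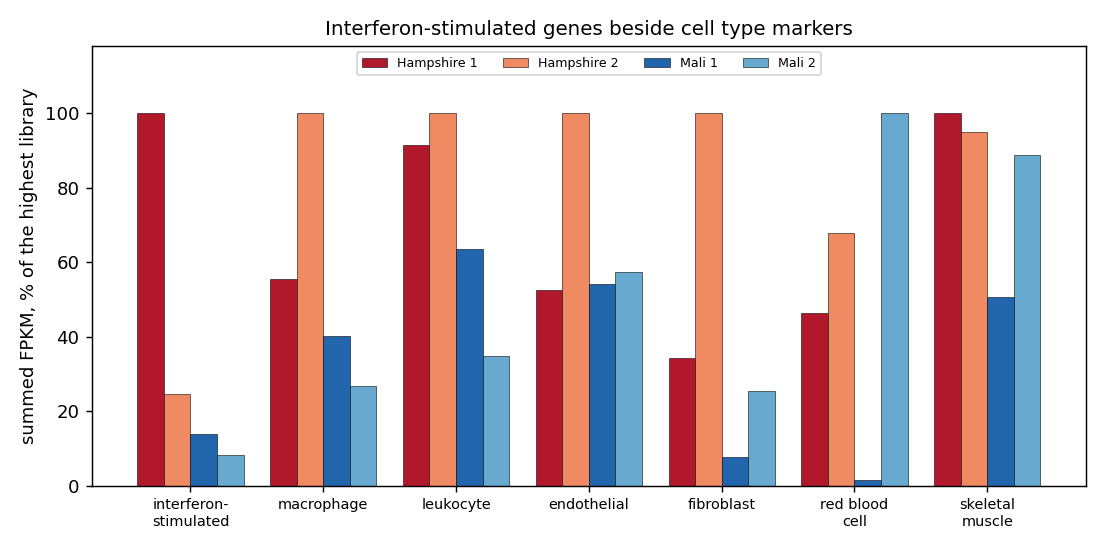
Summed FPKM of the 39 interferon-stimulated genes and of 6 marker lists in each library, as a percentage of the library with the highest sum; bars start at 0 and each bar is 1 library, so there are no error bars. The interferon-stimulated sum in Hampshire 2 is 24.7% of that in Hampshire 1, whereas the macrophage sum in Hampshire 1 is 55.4% of that in Hampshire 2.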

How the data were processed

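Per the labels' protocols, muscle RNA was extracted in Trizol and sequenced from TruSeq RNA libraries. The submitters' processing notes name HISAT2, Bowtie 0.12.2, Picard and Cuffdiff, with no role or order; the authors' genome build and strand setting were not given in the sources used here. In 1 table the authors deposited values in FPKM per gene and library, a mean FPKM per breed, and the p-value and q-value of their comparison, per the file headers. Of the rows with coordinates, 99.9% matched the Sscrofa11.1 RefSeq table by symbol, start and end, so coordinates are given in that build.

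Libraries were grouped by the breed in the labels and numbered 1 and 2 in accession order; the pairs used are Hampshire 1 with Mali 1 and Hampshire 2 with Mali 2, which share a title suffix. A nameless row was dropped, 26 date-like symbols were replaced using the gene ID column, and rows of one symbol were summed. Genes that reached 1 FPKM in 2 or more libraries were tested as log2(FPKM + 1), which understates the change of low genes, with limma 3.58.1 in R 4.3.3 (lmFit, then eBayes with trend; two-sided; adjusted p threshold 0.05). The residual degrees of freedom were 2 and the prior ones 5.24. The test was also run on simulated data, with an outcome not given here, so the size of difference it could call is not stated. FPKM carry no read counts, so no count test was run.

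The members, roles, pathway lists and marker lists were chosen with earlier results of these data known. All members found are named. From each pathway list the 4 genes of highest mean FPKM are named, with all ligands; other pathway genes, neighbours, overlapping genes and markers were named after their values were seen. The alternatives were other scalings, pseudocounts, filters and limma settings, use of a symbol's highest row alone, leaving out each library, and a replicate block. Figures were drawn with matplotlib 3.10.9. One gene of the pathway is not reported here.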

Additional observations from a re-analysis of the deposited data

How the results depend on the processing

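Over all scalings, pseudocounts and filters, the members' median log2 difference, 1.38 over the 36 tested, ranged from 1.07 to 1.995. The lowest came after rescaling to a common sum and the highest with a minimum mean of 5 FPKM. Every tested member stayed positive under each alternative, which is a description, since the members were chosen on the breed difference. The median over all genes was -0.40 with FPKM rescaled to one total and -0.01 under size-factor scaling. No member passed limma as deposited; 3 did after rescaling to a common sum and 4 when mitochondrial genes were left out of it. The count of genes called, 0 as deposited, was 68 and 63 under these rescalings and 1 with a minimum mean of 5 FPKM. It was between 0 and 7 with 1 library left out, where the lone library is assumed to vary like the others.

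The labels do not say that a title suffix pairs libraries; the deviations of same-suffix libraries from their breed means correlated at 0.275 across genes. With the suffix as a replicate block, limma called 261 genes (2.59%), 22 of them members, and 57 genes with size factors added, 5 of them members. Its residual degrees of freedom were 1 and its prior ones 27.4.

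With 1 library left out, the members' median was between 0.65 and 2.13. The count of members without overlap, 36 as deposited, was 28 under both rescalings to a common sum and 31 with quantile normalization. No share over all tested genes is given for these scalings, so nothing is read from the change. Leaving out a library can only keep or raise the count. The medians were 0.35 to 2.07 for sensors, 0.72 to 1.45 for transcription factors, 0.86 to 2.80 for effectors, 0.61 to 2.60 for ISG15 conjugation, 0.65 to 1.90 for PARP and DTX3L and 0.66 to 2.26 for the other members. The lowest role medians came without Hampshire 1 and the highest without Hampshire 2. The ISG15 conjugation median was 3.05 with a minimum mean of 5 FPKM, where ISG15 alone is left and the value is that gene's own.

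Among the pathway lists, the other STATs and IRFs had a median of -0.05 that was -0.36 after rescaling to a common sum, 0.071 under size-factor scaling (also with the replicate block), 0.12 with quantile normalization, 0.056 with no expression filter and -0.15 with a minimum mean of 5 FPKM. Sensing and adaptor genes went from 0.04 to -0.57 with a minimum mean of 5 FPKM and feedback inhibitors from 0.05 to -0.22 after rescaling to a common sum. Interferon gamma-induced genes, at 0.98, were at 0.48 with no expression filter, 2.02 with a minimum mean of 5 FPKM and 0.54 to 1.90 with 1 library left out. Further interferon-induced genes went from 0.69 to 0.26 with a minimum mean of 5 FPKM. With 1 library left out the other 4 of these lists ranged from -0.30 to -0.041, -0.25 to 0.28, -0.06 to 0.14 and 0.20 to 0.96. The cause of these changes was not tested. The depth of the libraries is unknown, which limits what can be said of members and ligands under 1 FPKM.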
